A study of Mus musculus with 12 samples.

Results

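Transcripts of the nuclear genes for oxidative phosphorylation subunits were followed through ureteral obstruction, complex by complex. Members were taken by gene symbol alone: symbols beginning with Nduf and then a, b, s, v or c, the symbols Sdha to Sdhd, and symbols beginning with Uqcr, with Cox4 to Cox8, or with Atp5. Ndufaf symbols (8 rows, complex I assembly factors) and symbols marked as pseudogenes with -ps (11 rows) were left out. This gave 90 of the 55471 rows of the table, with 41 in complex I, 4 in complex II, 8 in complex III, 19 in complex IV and 18 in complex V. Of these, 86 passed the filter on low reads and were tested. RNA came from left kidneys of C57/BL6 mice, either wild type or carrying a knockout of Sprr2f, a gene of the small proline-rich protein family. A nontraumatic clamp on the left ureter produced unilateral ureteral obstruction, and kidneys were taken at day 0 or day 5. The groups were wild type at day 0 (n = 2), wild type at day 5 (n = 3), knockout at day 0 (n = 4) and knockout at day 5 (n = 3), 12 libraries in all. The protocol states an age of 8 to 12 weeks for knockout mice. Whether day 0 kidneys were sham-operated or untouched, how the knockout was made, and the sex of each mouse are not given in the sources used here, although the series title speaks of female mice.

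Oxidative phosphorylation couples the oxidation of fuels to ATP synthesis across the inner mitochondrial membrane. Complex I (NADH dehydrogenase) and complex II (succinate dehydrogenase) pass electrons to ubiquinone, complex III (cytochrome bc1) passes them on to cytochrome c, and complex IV (cytochrome c oxidase) passes them to oxygen. Complexes I, III and IV pump protons, and complex V (ATP synthase) uses the resulting gradient to make ATP. Most subunits are encoded in the nucleus and a few in the mitochondrial genome, whereas complex II is wholly nuclear. In the kidney the proximal tubule and the thick ascending limb, which reabsorb solutes against gradients, are known for dense mitochondria.

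Libraries held 16567256 to 19398882 reads counted to genes. Values below are scaled CPM, the deposited CPM (reads of a gene scaled to a fixed library total) divided by a TMM factor, which corrects for differences in RNA composition between libraries. Day 0 libraries had factors of 0.795 to 0.897 and day 5 libraries had 1.13 to 1.19. Sprr2f stood at 26.9 to 58.8 CPM in wild type at day 5 and at 0 to 4.07 CPM in knockout at day 5, with 0 to 0.262 CPM in all day 0 libraries. In 7 libraries Y-linked transcripts were present and in the other 5 Xist was. All 4 knockout libraries at day 0 were of the first kind, the groups at day 5 were mixed, and the wild type day 0 group held 1 of each. The labels name no cultures, litters or batches, so p-values measure only the spread between these samples. Log2 fold changes are on the log2(scaled CPM + 0.5) scale, given ± SE, with p-values from a two-sided limma test adjusted over 18093 genes by the Benjamini-Hochberg method and called under 0.05.

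Because most members moved together, the sequence before their transcription start was searched for 4 short cores recognised by factors known to act on respiratory genes. These were GCGCANGCG for NRF1, CCGGAAGT for ETS factors such as GABPA, AAGATGGC for YY1 and TCAAGGTCA for the ERR family, on both strands and with overlaps allowed. RefSeq windows (GRCm38.p6) from 250 bases before to 50 bases after the start matched 69 of the 89 member symbols. An NRF1 core lay in 20 of them (29.0%), against 7.03% of 27025 genes and 12.8% of the 12800 tested genes with a window. The YY1 core lay in 10 members (14.5% against 3.19% and 4.59%). The ETS core lay in 5 (7.25% against 4.31% and 7.73%), so its share was no higher than among tested genes. The ERR core lay in 2 (2.90% against 0.466% and 0.344%). At least 1 core lay in 32 members (46.4%), against 13.7% of all genes and 22.9% of tested genes.

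The stretches shown are the parts of 6 windows that lie before the start and overlap no annotated exon, at most 150 bases each, with cores in capitals. The first 4 belong to members that fell with obstruction and show 1 core type in each of complexes I, III, IV and V. Outside the stretches shown, the windows of Ndufb4, Uqcr11 and Atp5g3 also hold NRF1 cores. The last 2 belong to Cox7a2l, which was not called, and to Cox6b2, which rose, and their windows held none of the 4 cores. Members that fell are also found without a core. Of the 69 members, 37 held none of the 4 cores, among them Atp5b, Sdhb and Uqcrfs1, which fell. Positions are bases before the RefSeq start. The Ndufb4 stretch (chr16:37654454-37654603, minus strand, complex I) has an NRF1 core at 191. In Uqcr11 (chr10:80406831-80406980, minus strand, complex III) an ETS core begins at 66. Cox6a1 (chr5:115348982-115349129, minus strand, complex IV) has overlapping NRF1 cores at 162 and 161 and another at 117. Atp5g3 (chr2:73911327-73911476, minus strand, complex V) has an ERR core at 52, on the opposite strand. Cox7a2l lies at chr17:83514334-83514483 and Cox6b2 at chr7:4753095-4753225, both on the minus strand. The Cox7a2l stretch lies within the annotated span of the gene given below. Bases before the upstream end of that span were not searched.
Ndufb4: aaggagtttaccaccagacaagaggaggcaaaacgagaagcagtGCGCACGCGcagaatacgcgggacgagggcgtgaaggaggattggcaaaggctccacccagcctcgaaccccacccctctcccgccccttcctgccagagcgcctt
Uqcr11: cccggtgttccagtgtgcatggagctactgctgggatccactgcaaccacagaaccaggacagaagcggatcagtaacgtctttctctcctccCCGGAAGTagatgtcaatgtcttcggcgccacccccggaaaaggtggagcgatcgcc
Cox6a1: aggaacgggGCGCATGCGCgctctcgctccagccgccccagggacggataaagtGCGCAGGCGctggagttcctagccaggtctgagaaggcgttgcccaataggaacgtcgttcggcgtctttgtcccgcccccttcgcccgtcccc
Atp5g3: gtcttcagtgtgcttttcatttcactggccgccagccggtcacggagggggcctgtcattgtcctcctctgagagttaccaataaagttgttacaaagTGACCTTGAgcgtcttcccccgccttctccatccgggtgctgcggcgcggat
Cox7a2l: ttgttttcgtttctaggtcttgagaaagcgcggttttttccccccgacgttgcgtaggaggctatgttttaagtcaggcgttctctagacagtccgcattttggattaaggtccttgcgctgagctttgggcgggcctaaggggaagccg
Cox6b2: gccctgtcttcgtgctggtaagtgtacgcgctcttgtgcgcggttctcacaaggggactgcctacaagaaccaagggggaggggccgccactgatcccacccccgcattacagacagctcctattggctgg
The 20 tested members with an NRF1 core had a median log2 fold change with obstruction of -1.17 in wild type and -1.11 in knockout. For the 48 without one, these medians were -1.15 and -1.15.

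Before obstruction, subunit transcripts differed widely in level within each complex. Per kilobase of the principal transcript, the highest wild type day 0 levels were those of Cox6a1 in complex IV (2288 scaled CPM per kb) and Atp5b, the catalytic beta subunit of ATP synthase, in complex V (1993). Uqcr11, a small subunit of complex III, stood at 1275 and Ndufa4 at 1156 per kb. Ndufa4 is counted here with complex I by its symbol, although its protein is now known as a subunit of complex IV. In complex II the flavoprotein Sdha (365 per kb) and the iron-sulfur protein Sdhb (363) were level, and the membrane anchors Sdhd (259) and Sdhc (147) were lower. The transcript used for Sdhc has 3171 bases, against 1142 for Sdhb, and the level per kb depends on the transcript chosen. Medians per kb were 209 for complex I, 311 for II, 394 for III, 508 for IV and 516 for V. At least 100 scaled CPM per kb was reached by 33 of 40, 4 of 4, 8 of 8, 12 of 17 and 15 of 17 tested members of complexes I to V. Of the c-ring genes of ATP synthase, which encode the same mature protein, Atp5g3 stood at 1440.4 per kb, Atp5g2 at 298 and Atp5g1 at 134. The transcript used for Atp5g1 has 4715 bases, against 723 for Atp5g3 and 731 for Atp5g2, so its place in this order depends on that choice.

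Transcripts of all 5 complexes were lower on day 5 of obstruction than on day 0 in both genotypes. In wild type, 79 of 86 tested members fell (of all genes tested, 22.6% fell), 2 rose (24.5% of all genes) and 5 were not called. The knockout gave the same counts, 79 lower against 25.4% of all genes, 2 higher against 29.4%, and 5 not called, and the members in each class were identical in both genotypes. The median log2 fold change of the members was -1.14 in wild type and -1.14 in knockout, with 0.04 and 0.07 over all genes tested. Every day 5 library lay below every day 0 library for 81 members in wild type (30.7% of all genes) and for 79 in knockout (25.6%). All members together took 3.15% to 3.16% of reads in wild type at day 0 and 1.76% to 1.92% at day 5. In knockout the shares were 3.20% to 3.44% and 1.92% to 2.12%. In bulk kidney RNA, fewer cells of a type and less RNA per cell cannot be told apart. With library size as the only scaling the member medians were -0.72 and -0.69, while those of all genes moved to 0.40 and 0.45. Under that scaling 76 wild type calls and 76 knockout calls were lower, with 3 and 4 higher. Of all 18093 genes tested, it called 2001 lower and 8560 higher in wild type, and 2179 and 10114 in knockout.

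Summed over its members, complex V was the most abundant and complex II the least in every library. The complex V sum was 13189 and 13220.5 scaled CPM in the wild type day 0 libraries and 5105, 5642 and 5279 at day 5. In knockout it was 14267, 15244, 14010.1 and 13148 at day 0 and 5902, 5788 and 6538 at day 5. Complex I summed to 8812 ± 489 (SD, n = 2) and 4030.2 ± 133 (SD, n = 3) in wild type and to 10230.3 ± 791 (SD, n = 4) and 4599 ± 217 (SD, n = 3) in knockout. Complex IV summed to 7697 ± 195 and 3549 ± 175 in wild type and to 8813 ± 705 and 4009.5 ± 158 in knockout. For complex III the sums were 3654 ± 64.9 and 1523 ± 64.4, then 4257 ± 341 and 1738 ± 48.9. For complex II they were 2258 ± 129 and 872 ± 42.1, then 2354 ± 127 and 983 ± 66.7. No day 5 library reached any day 0 library in any complex. Relative to the wild type day 0 mean, wild type day 5 sums were 45.7%, 38.6%, 41.7%, 46.1% and 40.5% for complexes I to V.

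**Figure D1:**
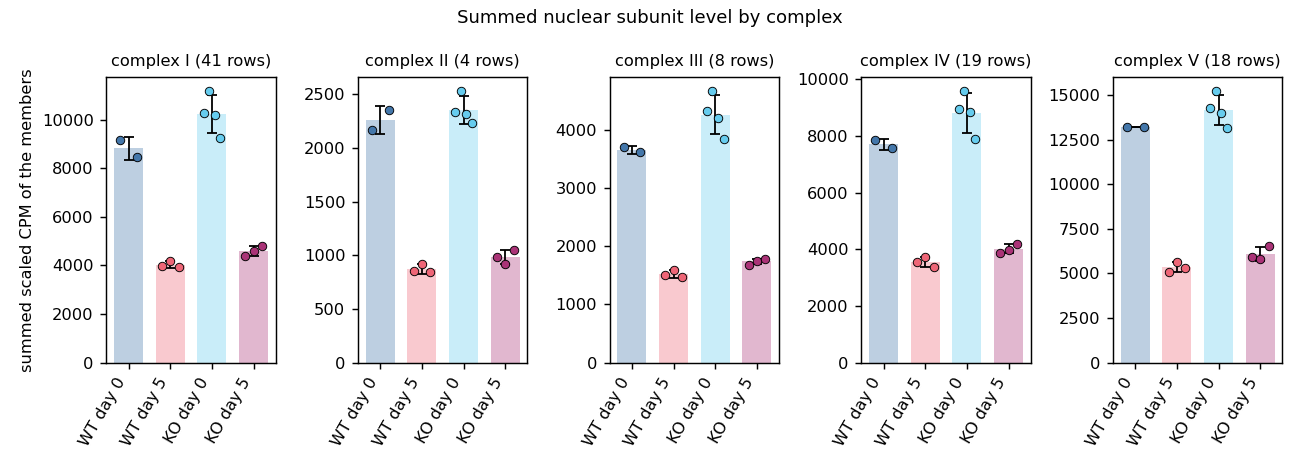
Summed scaled CPM of the members of each complex (vertical axis, from 0), with 1 point per library, bars at the group mean and lines of 1 SD, for wild type (WT) and knockout (KO) at day 0 and day 5. In each complex all 6 day 5 libraries lie below all 6 day 0 libraries, as in complex V with 5105 to 5642 in wild type and 5788 to 6538 in knockout at day 5 against 13189 to 13220.5 and 13148 to 15244 at day 0.

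The complexes had median falls close to each other. Median log2 fold changes in wild type were -1.34 for complex II, -1.28 for III, -1.22 for V, -1.14 for IV and -1.09 for I. In knockout they were -1.30 for III, -1.24 for II, -1.17 for V, -1.10 for IV and -1.10 for I. Between libraries of a group, the mean log2 level of a complex had a pooled SD of 0.066 (complex III) to 0.09997 (complex IV). Neighbours in these orders were at most 0.08 apart, while the ends lay at -1.34 and -1.09 in wild type. This SD is that of the level of each complex, not of a difference between complexes, which was not tested. Without paralogues and pseudogenes the complex IV medians were -1.20 in wild type and -1.19 in knockout. The share of each complex in the reads of all members, which needs no scaling between libraries, moved by a few percentage points at most. Complex I took 24.05% to 25.4% of member reads at day 0 and 26.0% to 26.5% at day 5 in wild type, and 25.4% to 25.9% and 26.1% to 27.0% in knockout. Complex IV took 21.5% to 21.7% and 22.6% to 23.7%, and 21.7% to 22.3% and 22.8% to 23.4% in knockout. Complex V took 36.6% to 37.6% and 34.1% to 35.4%, and 35.3% to 36.2% and 34.0% to 35.6% in knockout. Complex II took 6.01% to 6.67% and 5.67% to 5.73%, and 5.82% to 6.14% and 5.39% to 5.83% in knockout. Complex III took 10.2% to 10.3% and 9.90% to 10.004%, and 10.6% to 10.8% and 9.68% to 10.3% in knockout. Within a genotype, day 0 and day 5 shares overlapped for complexes II and V in knockout and did not overlap otherwise. Mean shares of complexes I and IV were higher at day 5, and the mean shares of II, III and V were lower, in both genotypes.

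**Figure D2:**
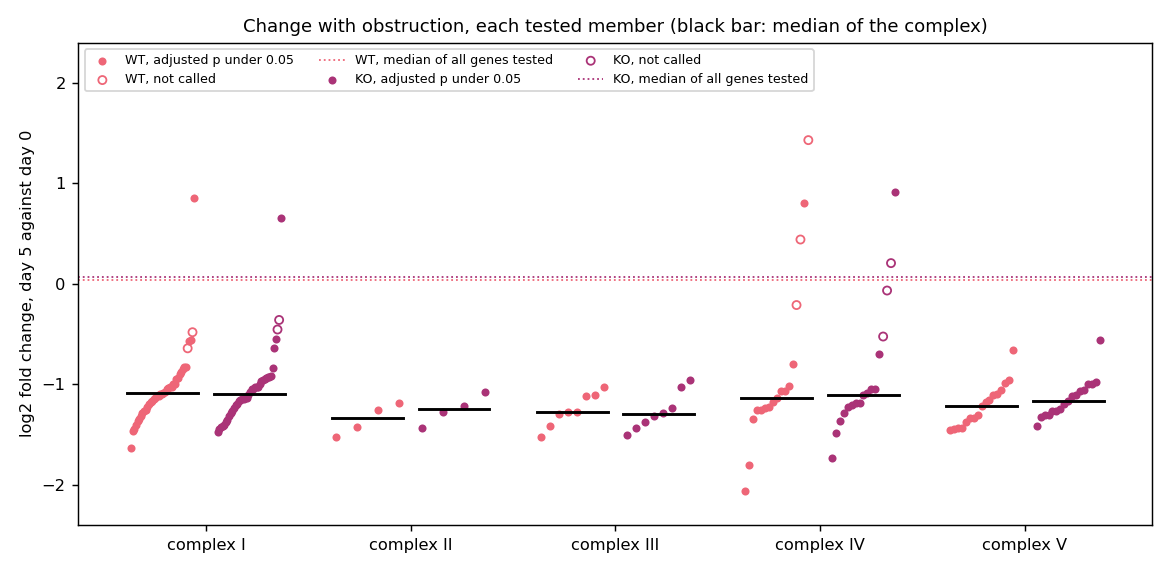
Log2 fold change of each of the 86 tested members (vertical axis, day 5 against day 0) by complex in wild type (WT) and knockout (KO), filled where adjusted p was under 0.05 and open where not. Black bars mark complex medians, between -1.34 and -1.09 in wild type, and dotted lines mark the medians of all genes tested, 0.04 and 0.07.

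Transcripts of both the catalytic core and the accessory subunits of complex I fell. In both genotypes 37 of its 40 tested members fell, 1 rose and 2 were not called. The 7 nuclear core subunits, which form the electron path of the complex, all fell, with a median log2 fold change of -1.17 in wild type and -1.13 in knockout. The 30 accessory subunits other than the paralogue Ndufa4l2 and the pseudogenes had medians of -1.08 and -1.11. Ndufs1 (ENSMUSG00000025968, chr1:63143596-63176833, minus strand), the large iron-sulfur subunit of the electron input arm, fell most in wild type. Ndufs1 measured 263 and 267 scaled CPM in wild type on day 0 and 80.5, 95.6 and 80.0 on day 5. Knockout values of Ndufs1 were 242, 274, 259.8 and 259.6 on day 0 and 101, 85.4 and 102 on day 5. The 6 day 5 libraries formed a tight low group and did not overlap the 6 day 0 libraries. This was a log2 fold change of -1.63 ± 0.10 (adjusted p = 2.06e-07) in wild type and -1.43 ± 0.09 (adjusted p = 7.66e-08) in knockout. The flavoprotein Ndufv1 changed by -1.32 and -1.31, and Ndufv2 by -1.14 and -1.02. Ndufs3, Ndufs7 and Ndufs8 gave -1.23, -1.05 and -1.17 in wild type and -1.11, -1.05 and -1.14 in knockout.

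Among the accessory subunits the falls spanned -1.47 to -0.56 in wild type and -1.47 to -0.55 in knockout. Ndufa1, a small membrane subunit encoded on the X chromosome, fell most in knockout (-1.47 ± 0.10, adjusted p = 1.78e-07), with -1.29 in wild type. The smallest falls were those of Ndufa7, at -0.56 ± 0.10 (adjusted p = 3.71e-04) and -0.64 ± 0.08 (adjusted p = 2.26e-05), and of Ndufb2. Ndufb2 was the lowest tested complex I member per length (1.74 scaled CPM per kb in wild type at day 0), on a principal transcript of 4371 bases. Its wild type fall of -0.57 (adjusted p = 0.0279) was no longer called when wild type day 0 replicate 1 or 2, or day 5 replicate 1 or 3, was left out (adjusted p = 0.0603 to 0.0930 in limma). The knockout value of -0.55 (adjusted p = 0.0109) was -0.37 and not called without day 5 replicate 2. With library size as the only scaling, Ndufb2 was -0.18 in wild type and -0.13 in knockout, not called in either (adjusted p = 0.471 and 0.496 in limma). Ndufab1, the mitochondrial acyl carrier protein, which also serves fatty acid and lipoic acid synthesis, fell as well (-1.07 and -0.93).

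Ndufa4l2 (ENSMUSG00000040280, chr10:127514967-127517154, plus strand), a paralogue of Ndufa4 known as a target of hypoxia-inducible factor, was the 1 complex I symbol that rose. Ndufa4l2 measured 7.63 and 5.26 scaled CPM in wild type on day 0 and 15.5, 11.2 and 9.55 on day 5. Knockout values of Ndufa4l2 were 8.22, 6.15, 5.57 and 6.49 on day 0 and 10.01, 10.2 and 11.6 on day 5. Day 5 values were above day 0 values in both genotypes without overlap. The log2 fold change was 0.85 ± 0.22 (adjusted p = 0.00666) in wild type and 0.66 ± 0.18 (adjusted p = 0.00922) in knockout. Without wild type day 0 replicate 2 it was 0.60 in wild type and not called (adjusted p = 0.0946 in limma). That leaves 1 wild type library at day 0, which is assumed to vary like the other groups. Among the 5 Xist libraries, with 1 wild type library at day 0 and 2 at day 5, it was 1.27 and called (adjusted p = 0.00277 in limma). The 7 Y-linked libraries hold 1 wild type library at each day and 1 knockout library at day 5. There it was 0.30 in wild type and 0.62 in knockout, not called, with these arms of 1 library each. Ndufa4 itself fell (log2 fold changes -1.26 and -1.42). Per transcript length, Ndufa4l2 was 0.532% to 0.652% of Ndufa4 at day 0 and 2.24% to 3.54% at day 5 in wild type, and 0.412% to 0.579% and 1.95% to 2.33% in knockout. The transcript remained a small fraction of its counterpart in every library.

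All 4 subunits of complex II fell in both genotypes. Sdhb (ENSMUSG00000009863, chr4:140961203-140979193, plus strand), the iron-sulfur subunit that leads electrons from the flavin to ubiquinone, fell most. Sdhb measured 399.6 and 429.5 scaled CPM in wild type on day 0 and 141, 146 and 144 on day 5. Knockout values of Sdhb were 464, 515, 453 and 437 on day 0 and 169, 162 and 189 on day 5. The day 5 libraries of both genotypes lay far below all day 0 libraries. Log2 fold changes were -1.53 ± 0.09 (adjusted p = 1.71e-07) and -1.43 ± 0.08 (adjusted p = 4.79e-08). Sdha, which carries the flavin and oxidises succinate, changed by -1.43 ± 0.11 and -1.27 ± 0.10. The anchors changed by -1.25 and -1.21 for Sdhc and by -1.18 and -1.07 for Sdhd, the smallest falls of the complex.

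In complex III all 8 members fell in both genotypes. Uqcrfs1 (ENSMUSG00000038462, chr13:30540308-30545362, minus strand), the Rieske iron-sulfur protein and 1 of the redox centres of the complex, fell most. Uqcrfs1 measured 549 and 500.1 scaled CPM in wild type on day 0 and 179, 193 and 173 on day 5. Knockout values of Uqcrfs1 were 597, 630.5, 576 and 545 on day 0 and 211, 199.5 and 208 on day 5. Day 0 and day 5 libraries were wide apart, with log2 fold changes of -1.53 ± 0.09 (adjusted p = 1.55e-07) and -1.51 ± 0.08 (adjusted p = 3.02e-08). The core proteins Uqcrc1 and Uqcrc2 gave -1.30 and -1.41 in wild type and -1.31 and -1.23 in knockout. Uqcrh, the hinge protein near cytochrome c1, fell least (-1.03 ± 0.10 and -0.96 ± 0.09). The small subunits Uqcr10, Uqcr11, Uqcrb and Uqcrq lay between, from -1.28 to -1.11 in wild type and from -1.44 to -1.02 in knockout.

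In complex IV, 13 of 17 tested members fell, 1 rose and 3 were not called, in each genotype. The 10 widely expressed structural subunits all fell, with log2 fold changes of -1.34 to -1.01 in wild type and -1.36 to -1.04 in knockout. Cox6a1 was the most abundant of them per length. Cox6a1 measured 1361 and 1252 scaled CPM in wild type on day 0 and 541, 610.4 and 634 on day 5. Knockout values of Cox6a1 were 1580.3, 1728, 1625 and 1344 on day 0 and 595, 671 and 661 on day 5. Day 0 and day 5 values did not overlap. Its log2 fold changes were -1.14 ± 0.13 and -1.28 ± 0.11, and those of Cox4i1, an early-assembling subunit, were -1.01 ± 0.10 and -1.05 ± 0.09. Cox6b1, Cox7a2, Cox7b and Cox8a gave -1.06, -1.23, -1.26 and -1.23 in wild type and -1.10, -1.36, -1.23 and -1.21 in knockout. Several subunits of this complex exist as paralogues that are used in other tissues, and the sets did not move as 1 block.

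Cox7a1 and Cox6a2, the isoforms known from heart and skeletal muscle, had larger falls than their widely expressed counterparts, a difference that was not tested. Cox7a1 measured 40.8 and 44.5 scaled CPM in wild type on day 0 and 12.3, 14.2 and 9.60 on day 5. Knockout values of Cox7a1 were 47.5, 45.1, 47.5 and 43.7 on day 0 and 13.9, 10.3 and 16.8 on day 5. No day 5 library came near a day 0 library, and log2 fold changes were -1.80 ± 0.18 (adjusted p = 5.45e-06) and -1.74 ± 0.15 (adjusted p = 1.10e-06). Per length it was 15.6% to 17.7% of Cox7a2 at day 0 and 9.88% to 11.9% at day 5 in wild type, and 12.1% to 15.4% and 8.35% to 13.1% in knockout, where the ranges overlapped. Cox6a2 was a rare transcript. Cox6a2 measured 3.93 and 4.35 scaled CPM in wild type on day 0 and 0.520, 0.756 and 0.570 on day 5. Knockout values of Cox6a2 were 2.47, 4.18, 2.46 and 2.02 on day 0 and 0.441, 0.690 and 0.836 on day 5. All day 5 values were below all day 0 values. Its log2 fold changes of -2.06 ± 0.26 (adjusted p = 3.47e-05) and -1.48 ± 0.22 (adjusted p = 9.54e-05) made it the largest fall of the complex in wild type and the second largest in knockout. Per length it was 0.243% to 0.292% of Cox6a1 at day 0 and 0.0754% to 0.104% at day 5 in wild type, and 0.126% to 0.203% and 0.0622% to 0.106% in knockout. The 8 skeletal muscle markers summed to 2.398 to 6.04 scaled CPM over the 12 libraries, with Ckm at 0 in 11 of them. Of the 4 tested, 1 fell in wild type (22.6% of all genes) and 0 in knockout (25.4%).

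Cox6b2 (ENSMUSG00000051811, chr7:4751792-4753094, minus strand), known as the testis isoform of Cox6b1, rose in both genotypes. Cox6b2 measured 17.9 and 16.9 scaled CPM in wild type on day 0 and 41.5, 29.0 and 24.2 on day 5. Knockout values of Cox6b2 were 10.7, 13.7, 15.9 and 17.3 on day 0 and 28.9, 21.8 and 31.7 on day 5. All day 5 libraries were above all day 0 libraries. Log2 fold changes were 0.81 ± 0.23 (adjusted p = 0.0126) and 0.91 ± 0.20 (adjusted p = 0.00163). The wild type call was lost without day 0 replicate 2 (0.77, adjusted p = 0.0592 in limma), with 1 library left in that group. It was 1.04 and called among the Xist libraries (adjusted p = 0.00386 in limma). Among the Y-linked libraries, with their arms of 1 library, the values were 0.42 and 0.61, not called. Per length, Cox6b2 was 2.64% of Cox6b1 in both wild type day 0 libraries and 8.33% to 12.9% on day 5, with 1.36% to 2.51% and 6.04% to 9.19% in knockout.

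Cox7a2l (ENSMUSG00000024248, chr17:83501918-83517330, minus strand), whose protein is known from studies of supercomplexes of complexes III and IV, was not called in either genotype, whereas its relative Cox7a2 fell. Neither the protein nor supercomplexes were measured here. Cox7a2l measured 161 and 174 scaled CPM in wild type on day 0 and 155, 142 and 137 on day 5. Knockout values of Cox7a2l were 169, 175, 158 and 145 on day 0 and 151, 150.002 and 161 on day 5. The wild type groups did not overlap and the knockout groups did. Log2 fold changes were -0.21 ± 0.09 (adjusted p = 0.0845) and -0.07 ± 0.08 (adjusted p = 0.498), neither called. The direction depends on the scaling: with library size alone they were 0.21 and 0.38, and the knockout value was called (adjusted p = 5.37e-04 in limma). With the sex-chromosome pattern as a covariate the wild type value of -0.23 was called (adjusted p = 0.0444 in limma). Independently of scaling, Cox7a2l was 22.5% to 25.2% of Cox7a2 per length on day 0 and 43.7% to 51.3% on day 5 in wild type. In knockout these ranges were 17.2% to 18.6% and 43.2% to 45.7%. Of the 50-base sequences of its transcript, 19.8% also occur in Gm6969.

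Cox4i2, the isoform of Cox4i1 known from lung and as a hypoxia-responsive gene, was scarce (1.51 and 0.907 scaled CPM in wild type at day 0, 1.80, 2.17 and 1.45 at day 5) and was not called (0.44 ± 0.25 and 0.21 ± 0.21). With library size as the only scaling it was called higher in both genotypes (0.76 and 0.54, adjusted p = 0.0180 and 0.0342 in limma). Per length, Cox4i2 was 0.111% to 0.175% of Cox4i1 at day 0 and 0.355% to 0.519% at day 5 in wild type. The knockout ranges were 0.0852% to 0.163% and 0.264% to 0.395%, and neither genotype overlapped between days. Pericytes are known to express Cox4i2. Of 8 pericyte markers 5 rose in wild type (24.5% of all genes), and 5 rose and 2 fell in knockout (29.4% and 25.4%). Their sums were 191 to 216 and 366 to 448 scaled CPM at day 0 and day 5 in wild type. In knockout these sums were 198 to 220.1 and 309 to 399.6, and the part of these cells in the Cox4i2 values was not tested. Cox8b, the isoform known from muscle and brown fat, was uneven within groups. Cox8b measured 0.182 and 5.14 scaled CPM in wild type on day 0 and 4.02, 5.90 and 4.601 on day 5. Knockout values of Cox8b were 1.98, 0.835, 11.7 and 1.19 on day 0 and 1.85, 0.739 and 2.23 on day 5. Of the wild type day 0 pair, 1 library lay far below the day 5 group and the other within it, and knockout day 0 replicate 3 was far above the other 3. The log2 fold changes of 1.43 ± 0.90 and -0.52 ± 0.75 were not called. The wild type value was -0.10 without day 0 replicate 1 and 2.96 without replicate 2, where it was called (adjusted p = 0.0229 in limma). The knockout value was 0.15 without day 0 replicate 3. Genes of fat cells also varied between day 0 libraries. The brown fat gene Ucp1 was at 0.0605 and 2.12 scaled CPM in wild type and at 0.556, 0.607, 8.56 and 3.45 in knockout. Cidea was at 0.121 and 0.907 in wild type and at 0.989, 0.304, 6.42 and 0.655 in knockout, and both genes were highest in the knockout replicate with the most Cox8b. The adipocyte hormone Adipoq was at 0 and 9.73 in wild type and at 5.69, 1.52, 4.41 and 2.08 in knockout. The 7 adipocyte markers summed to 67.9 to 205 over the 12 libraries. The highest sum was that of knockout day 5 replicate 2, where Cox8b was at 0.739. Knockout day 0 replicate 3, with the most Cox8b, had a sum of 138. Of the 6 tested, 1 rose in wild type (24.5% of all genes) and 2 fell in knockout (25.4%). The part of fat cells in the Cox8b values was not tested.

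**Figure D3:**
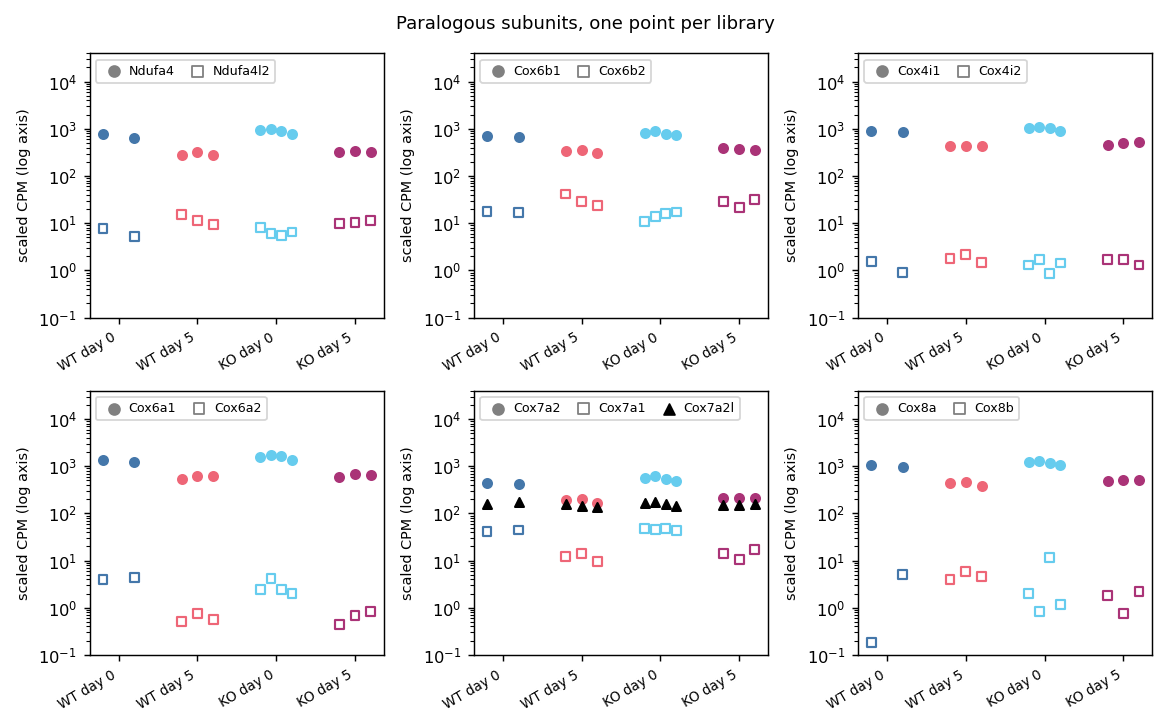
Scaled CPM (log axis) of 6 sets of paralogous subunits in each library, with 1 point per library and groups along the horizontal axis. The widely expressed forms (filled circles) fall at day 5 in each panel, Ndufa4l2 and Cox6b2 are higher at day 5, Cox7a2l (triangles, from 137 to 175) was not called, and Cox8b ranges from 0.182 to 11.7.

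All 17 tested members of complex V fell in both genotypes. Atp5b (ENSMUSG00000025393, chr10:128083273-128090391, plus strand) held the most reads of all members. Atp5b measured 3782 and 3857 scaled CPM in wild type on day 0 and 1283, 1456 and 1432 on day 5. Knockout values of Atp5b were 3977, 4139, 3816 and 3619 on day 0 and 1533, 1478 and 1712 on day 5. The groups were wide apart, with log2 fold changes of -1.46 ± 0.14 (adjusted p = 3.76e-06) and -1.31 ± 0.12 (adjusted p = 1.42e-06). Atp5a1, the alpha subunit of the catalytic head, changed by -1.43 ± 0.13 and -1.25 ± 0.11, and Atp5c1, the gamma subunit of the central stalk, by -1.30 and -1.19. Atp5k, the e subunit of the membrane part, fell most in knockout (-1.41 ± 0.11, with -1.44 in wild type). The c-ring genes did not fall by the same amount. Atp5g1 and Atp5g3 changed by -1.33 and -1.37 in wild type and -1.27 and -1.32 in knockout, whereas Atp5g2 changed by -0.65 ± 0.08 (adjusted p = 3.45e-05) and -0.56 ± 0.07 (adjusted p = 2.33e-05). Atp5g2 measured 214 and 221 scaled CPM in wild type on day 0 and 131, 137 and 147 on day 5. Knockout values of Atp5g2 were 231, 222, 217 and 206 on day 0 and 140.0, 150.5 and 156 on day 5. Per length it was 19.8% to 21.6% of Atp5g3 on day 0 and 31.3% to 37.3% on day 5 in wild type. Knockout gave 17.96% to 20.9% and 30.7% to 35.5%, also without overlap. Atp5g1, on a transcript of 4715 bases against 723, stayed at 8.97% to 10.1% of Atp5g3 per length over all 12 libraries. Of the 50-base sequences of Atp5g2, 87.4% also occur in Gm10175 or Gm10231, so that its reads are uncertain.

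Reads of some members cannot be assigned with certainty. Reads were 50 bases long, and 19 of the 90 rows share at least 25% of the 50-base sequences of their principal transcript with another gene, mostly processed copies. These include Atp5l (84.8%), Atp5o (50.3%), Cox7c (53.0%), Atp5h (47.9%), Uqcrb (43.4%) and Ndufb4 (37.0%). Without them, 63 of 68 tested members fell and 2 rose in each genotype, with medians of -1.17 and -1.18. The opposite strand carries an annotated exon over part of 25 members, and the counting is not stated to use strand. Of the 4 processed pseudogenes that match the symbol rule, Cox6c2 was called lower in both genotypes (-0.80 and -0.70) on at most 19 reads a library. Ndufs6b and Ndufb4c were not called (-0.64 and -0.36, then -0.48 and -0.46), and Ndufa11b had 5 reads in all libraries together. The remaining rows not tested were Cox8c, with 1 read, and Cox7b2 and a second row named Atp5o (ENSMUSG00000116933), both with 0. Cox8c and Cox7b2 are known as testis isoforms.

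No member was called for a difference between wild type and knockout in its response to obstruction. In the test of the interaction, the difference between the obstruction effects of the genotypes, 0 of 86 members were called by limma, edgeR or DESeq2 (0.00553% of all genes were called by limma). DESeq2 gave an adjusted p for 80 members and 12122 genes. It called 35 genes with a positive and 12 with a negative interaction. At an unadjusted p under 0.05 limma gave 1 member, Atp5o, where 7.59% of all genes passed. Atp5o measured 33.2 and 29.0 scaled CPM in wild type on day 0 and 11.1, 12.5 and 9.90 on day 5. Knockout values of Atp5o were 31.9, 37.4, 33.4 and 31.9 on day 0 and 13.6, 17.8 and 19.5 on day 5. The wild type and knockout ranges overlapped on day 0 and not on day 5, and the interaction was 0.46 ± 0.20 (adjusted p = 0.649). Its reads are among the uncertain ones. Interaction medians were 0.00, 0.10, 0.00, 0.03 and 0.04 log2 units for complexes I to V, with a median SE per member of 0.14. Over the 86 tested members the log2 fold changes of the genotypes, which share no libraries, had a Pearson correlation of 0.874 and a Spearman correlation of 0.855. Across these members reads came from the same libraries, so they are not independent points.

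Most members had a higher mean level in knockout than in wild type on both days, but none reached the threshold in the limma test. At day 0, limma and edgeR called 0 of 86 members (0.0166% of all genes by limma), with 27 at an unadjusted limma p under 0.05 (15.0% of all genes), of which 26 were higher in knockout. DESeq2 called 3, Ndufa4, Ndufb4 and Uqcr10, all higher (2.67% of genes by DESeq2). At day 5, 0 members were called by limma, edgeR or DESeq2 (0.0% of all genes by limma), with 30 at an unadjusted limma p under 0.05 (5.67% of all genes), all higher. Over all genes, DESeq2 called 49 higher and 2 lower at day 5, among 1604 with an adjusted p. DESeq2 gave an adjusted p for 82 members at day 0 and 65 at day 5. The log2 difference was above 0 for 75 of 86 members at day 0 (median 0.16) and for 80 of 86 at day 5 (median 0.18). Over all genes tested these medians were 0.00 and 0.00. Complex medians at day 0 were 0.20, 0.10, 0.15, 0.11 and 0.13 for I to V. At day 5 they were 0.18, 0.18, 0.19, 0.12 and 0.20. Every knockout library lay above every wild type library for 38 members at day 0 (12.9% of all genes) and for 50 at day 5 (5.72%). Members vary together from library to library, so these counts are not separate observations.

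Ndufb4, an accessory subunit of the membrane arm, had the smallest adjusted p for genotype at day 0. It stood at 161 and 141 scaled CPM in wild type and 197, 238, 214 and 185 in knockout, which did not overlap, a log2 difference of 0.46 ± 0.10 (adjusted p = 0.0910). At day 5 the wild type values were 68.3, 68.9 and 66.1 and the knockout values 79.4, 82.7 and 76.6, again without overlap, with a difference of 0.23 ± 0.09 (adjusted p = 0.855). Without wild type day 0 replicate 1, Ndufb4 and Ndufv3 were called at day 0 in limma (0.56 and 0.60, adjusted p = 0.0335 and 0.0297), with 3.37% of all genes called. That fit has 1 wild type day 0 library, which is assumed to vary like the other groups. Without replicate 2, which also leaves 1 such library, the median log2 difference of the members at day 0 was 0.16. The median without replicate 1 was 0.21. With the sex-chromosome pattern added as a covariate, 0 members were called, a count with no share of all genes to set beside it. The member medians in that fit were 0.18 at day 0 and 0.18 at day 5. With library size as the only scaling they were 0.09 and 0.14. Proximal tubule markers, 12 genes, summed to 14939.9 to 16134 scaled CPM in wild type and 15972 to 17631 in knockout at day 0, and to 2598 to 3609 and 3014 to 5537 at day 5, and their part in the difference was not tested.

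**Figure D4:**
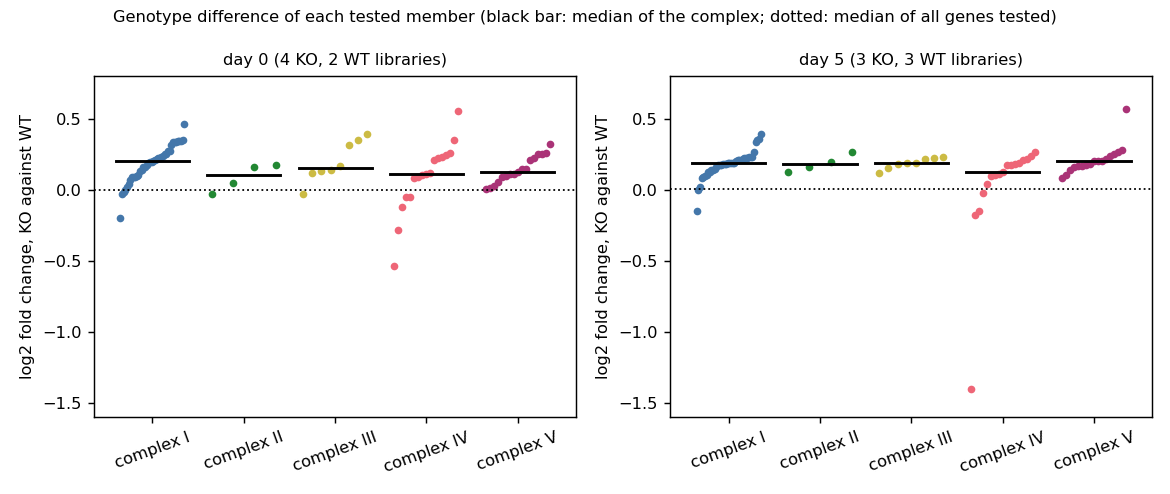
Log2 difference of each tested member between knockout (KO) and wild type (WT), at day 0 on the left and day 5 on the right, by complex. Black bars mark complex medians (0.12 to 0.20 at day 5), the dotted line the median of all genes tested, and the point at -1.40 is Cox8b.

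The 13 protein-coding genes of the mitochondrial genome, which supply the remaining subunits of complexes I, III, IV and V, had a lower median than the nuclear members. All 13 were lower in both genotypes (22.6% and 25.4% of all genes), with medians of -1.58 and -1.50. Those of complex I had medians of -1.72 and -1.53 (7 genes), where the nuclear members had -1.09 and -1.10. mt-Cytb, the mitochondrial gene of complex III, gave -1.70 and -1.57, and the 3 genes of complex IV had medians of -1.46 and -1.47. For the 2 genes of complex V the medians were -1.43 and -1.24, beside nuclear medians of -1.22 and -1.17. These 2 genes summed to only 31.4 to 31.5 scaled CPM in wild type at day 0 and 8.13 to 19.8 at day 5. In knockout they summed to 28.0 to 35.2 and 8.97 to 12.3. The 3 genes of complex IV summed to 31444 to 33524 in wild type at day 0. The complex V medians thus rest on far lower counts, and the reason for these low levels was not tested. mt-Nd2 fell most in wild type, at -1.91 ± 0.20 (adjusted p = 8.92e-06), with -1.71 ± 0.17 in knockout. The difference between the mitochondrial and nuclear genes was not tested.

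Factors that assemble the complexes fell as well, with smaller medians. Of 15 tested factors of complex I, 14 fell in each genotype (medians -0.71 and -0.79). Acad9, Ecsit and Nubpl were the largest of these falls in wild type (-1.27, -1.19 and -1.20), and Tmem186 was not called (-0.25 and -0.12). For complex IV, 14 of 19 fell in wild type and 16 in knockout (medians -0.60 and -0.62), among them Cox15, which makes heme a (-1.17 and -1.24), and Surf1 (-0.38 and -0.36). The copper chaperone Cox17 was not called (0.26 and 0.46), and Sco2 and Pet117 had no reads. Of complex II, 2 of 4 factors fell in wild type and 3 in knockout, of complex III 3 and 4 of 6, and of complex V 3 and 3 of 3. Among all genes, 22.6% fell in wild type and 25.4% in knockout. No assembly factor was called higher in either genotype, where 24.5% and 29.4% of all genes were.

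Of the 12 genes of the mobile electron carriers, cytochrome c and the enzymes of ubiquinone synthesis, 11 fell in each genotype. Among all genes, 22.6% fell in wild type and 25.4% in knockout. Cycs measured 447 and 305 scaled CPM in wild type on day 0 and 135, 150.3 and 176 on day 5. Knockout values of Cycs were 492, 619, 537 and 496 on day 0 and 164, 202 and 151 on day 5. Cycs encodes cytochrome c itself, and its days did not overlap (-1.27 ± 0.17 and -1.64 ± 0.15, adjusted p = 6.68e-05 and 1.29e-06). Coq8a and Coq9 gave -1.67 and -1.56 in wild type and -1.69 and -1.46 in knockout. Coq8b was the exception, called higher in wild type (0.28 ± 0.11, adjusted p = 0.0463) and not called in knockout (0.07 ± 0.09, adjusted p = 0.517). The difference between the genotypes was not called (adjusted p = 0.745).

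Regulators of mitochondrial genes went both ways. Of 15, 11 fell and 3 rose in each genotype (medians -0.67 and -0.65). Among all genes, 22.6% fell and 24.5% rose in wild type, and 25.4% fell and 29.4% rose in knockout. Ppargc1a measured 90.9 and 141 scaled CPM in wild type on day 0 and 42.7, 48.4 and 36.9 on day 5. Knockout values of Ppargc1a were 81.3, 65.5, 85.1 and 94.7 on day 0 and 72.8, 32.1 and 58.3 on day 5. For this coactivator the log2 fold changes were -1.40 ± 0.28 (adjusted p = 0.00132) and -0.65 ± 0.24 (adjusted p = 0.0350), and the interaction was not called (0.76 ± 0.37, adjusted p = 0.670). The nuclear receptors Esrra (-1.13 and -0.98) and Ppara (-1.63 and -0.71) and the mitochondrial transcription factor Tfam (-0.61 and -0.73) also fell. Those that rose were the coactivator Pprc1 (0.83 and 1.14), Hif1a (0.46 and 0.51) and Nrf1 (0.29 and 0.38). Nrf1 and Gabpa encode factors for which cores were searched, and Gabpa fell (-0.58 and -0.40). Gabpa exons lie opposite 22.5% of the exon bases of Atp5j, and the counting is not stated to use strand, so its value is uncertain.

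**Figure D5:**
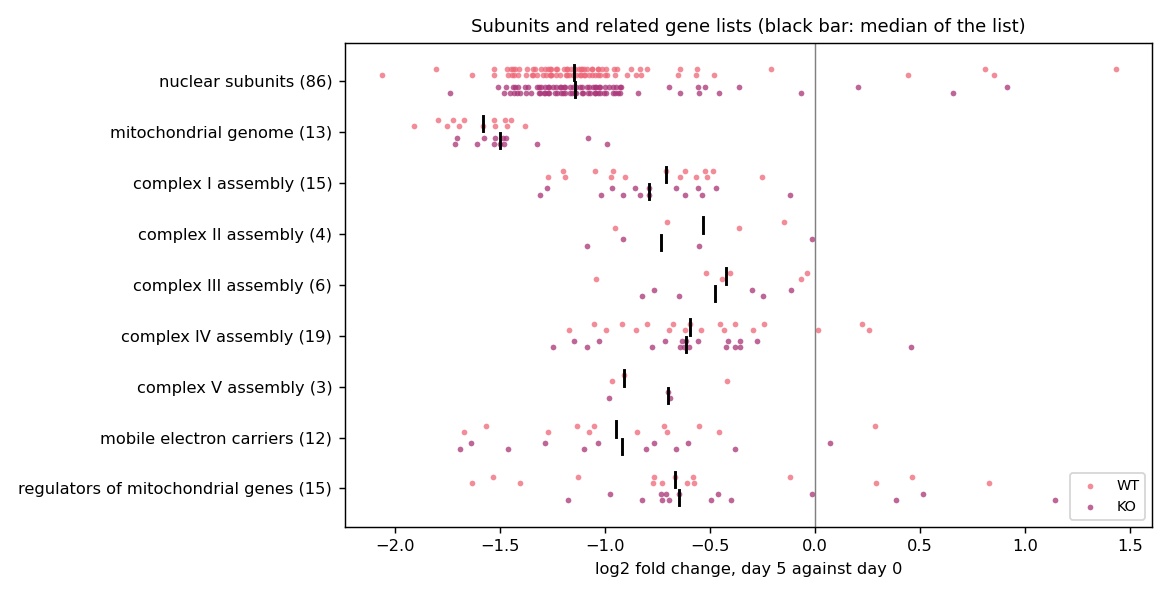
Log2 fold change with obstruction (horizontal axis) of the 86 nuclear subunits and of 8 related gene lists, 1 point per gene, wild type (WT) above knockout (KO), with the number of tested genes in brackets. Black bars mark medians: -1.14 and -1.14 for the subunits, -1.58 and -1.50 for the mitochondrial genome and -0.67 and -0.65 for the regulators.

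Markers of several kidney cell types also changed with obstruction. Of 12 proximal tubule markers 11 fell in each genotype (medians -2.56 and -1.66), and none was at 0 in all libraries. Thick ascending limb markers summed to 3891 to 5407 scaled CPM in wild type at day 0 and 1929 to 2245 at day 5, and 3 of 5 fell in wild type and 4 in knockout. All 8 fibroblast and myofibroblast markers rose in both genotypes (medians 2.87 and 3.05), as did all 8 macrophage markers (2.89 and 2.52). Macrophage markers summed to 172 to 178 scaled CPM in wild type at day 0 and 808 to 1014 at day 5, and to 178 to 238 and 866 to 1216 in knockout. The fibroblast sums were 482 to 603 and 3007 to 4839, then 393 to 623 and 2903 to 4307. Among all genes, 22.6% fell and 24.5% rose in wild type, and 25.4% fell and 29.4% rose in knockout. The part of these cell types in the fall of the subunits was not tested.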

How the data were processed

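Poly(A) RNA of 12 left kidneys was sequenced in reads of 50 bases, per the labels' protocols. The deposited values are CPM, reads scaled to a fixed library total, for each of 55471 genes, made by the authors from gene counts with STAR, SAMtools and HTSeq on GRCm38.p6, per the submitters' processing notes, which name no versions. Whether counting used strand is not given in the sources used here. Every CPM value was a whole multiple of the value of 1 read (100.0% of 665652 values within 0.001), so reads could be recovered.

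CPM was divided by TMM factors (edgeR 4.0.16), 0.5 was added, and log2 values were fitted over all 4 groups with limma 3.58.1 (R 4.3.3, trend), with no covariate and Benjamini-Hochberg adjustment. Genes needed 10 reads in enough libraries and 15 in all (18093 genes with 99.9% of reads). Libraries held 16567256 to 19398882 reads. Complex sums add scaled CPM over all members. Levels per kb use the principal GENCODE M21 transcript. The fit was also run on simulated data in which few genes changed, as many up as down. That run does not test the scaling for changes as broad as those between the days here.

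The members and lists were chosen with earlier results of these data known. Named members are the catalytic and redox subunits, the paralogue sets, the extremes of each complex, those with the highest level per length, those higher or not called, and those not tested. From other lists, up to 4 genes with the smallest adjusted p and defining markers were to be named. Further genes were chosen after their values were seen. The values of 1 member are not reported here. Alternatives were edgeR, DESeq2 1.42.0 and limma-voom on recovered reads, other scalings, filters and pseudocounts (0.1 and 1 CPM), fits of only the groups compared or without mitochondrial reads, a covariate for the sex-chromosome pattern, and each library left out. Chosen after seeing the data were fits of the 5 Xist or the 7 Y-linked libraries alone and the removal of members that share 25% or more of their sequence. Figures were drawn with matplotlib 3.10.9.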

Additional observations from a re-analysis of the deposited data

Results flagged for a closer look

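In the knockout day 0 group of 4 libraries, 1 library stood apart from the others for Uqcrh, the hinge protein of complex III, and for Cox8b. Uqcrh was at 469, 549, 460 and 459 scaled CPM, and the gap between replicate 2 and the nearest library took 0.888 of the range of the group. Cox8b was at 1.98, 0.835, 11.7 and 1.19 scaled CPM, and the gap between replicate 3 and the nearest library took 0.895 of the range. Both are above the 95% critical value of Dixon's test for 4 samples, and 32 groups of 4 were examined. Chance alone marks about 1 in 20 such groups.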

How the results depend on the processing

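The fall of the complexes kept its direction under every alternative run. With all libraries, 79 of 86 tested members were called lower in each genotype, against 22.6% and 25.4% of all genes. Members called lower numbered 77 to 80 in wild type and 77 to 79 in knockout with 1 library left out. With library size as the only scaling, medians for complexes I to V were -0.67, -0.92, -0.85, -0.71, -0.80 in wild type and -0.64, -0.79, -0.85, -0.65, -0.72 in knockout, and 4 members were called higher in knockout. That scaling called 10114 of all 18093 genes higher in knockout. With upper-quartile factors the wild type medians of complexes II and III were -1.27 and -1.21. With DESeq2 the knockout median of complex IV was -1.23 and 3 members were called for genotype at day 0. The Y-linked libraries alone set 1 wild type library against 1, and 4 knockout libraries against 1, so a lost call there says little. In that fit the wild type medians of complexes I and V were -1.17 and -1.41. Among the Xist libraries alone the wild type median of complex V was -1.11. With each library left out in turn, the knockout median of complex III ranged from -1.38 to -1.26, members called higher in wild type from 1 to 2, and members called for genotype at day 0 from 0 to 2. Single members changed sign as follows. Cox7a2l was 0.21 in wild type and 0.38 in knockout with library size only. Cox8b was -0.10 in wild type without day 0 replicate 1 and 2.96 without replicate 2, -0.0537 in the Xist libraries, and ranged from -0.91 to 0.15 in knockout with each library left out, the highest without day 0 replicate 3. Cox4i2 was -0.0519 in wild type among the Y-linked libraries and Ndufb4c 0.0101 among the Xist libraries. Beyond the settings' own construction (another scaling, fewer libraries), the cause was not tested. Replicate numbers follow accession order. No paired analysis was possible because the labels give no number that ties a library of one group to a library of another. Depth limits Cox4i2, Cox6a2, Cox8b and the pseudogenes, which had few reads.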
